A study of Mus musculus with 6 samples.

Results

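The 200 genes described here were those that differed most among 3 wildtype mouse testes of the same age. They were taken from 11926 genes that passed a set of filters, out of 42096 genes in the deposited table once spike-in RNAs were set aside. A gene passed when it had at least 100 expected counts in each wildtype testis and when its mean level in mutant testes was more than 0.5 and less than 2 times its wildtype mean. The 100 most abundant wildtype genes were left out. Levels were expressed as CPM, the count of a gene per 1000000 counts of its testis, and the 200 genes with the largest ratio of highest to lowest wildtype CPM were kept as members. The wildtype spread and the mean difference between genotypes were therefore used to choose the members, and both are given as description, without a test.

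RNA came from whole testes of late juvenile C57Bl6J mice at 25 dpp (days post-partum), 3 wildtype and 3 *Adad2* mutant. The mutant of the study carries em3, a CRISPR-induced null allele of *Adad2* that is present in all cells of the animal. Total expected counts lay between 16133264 and 22179778 per testis, and wildtype replicates 1 and 2, which differ most below, had similar totals of 16133264 and 16548549. The identifiers of wildtype replicate 1 and mutant replicate 1 open with the same number, as do those of wildtype replicates 2 and 3 and of mutant replicates 2 and 3, and the labels do not say what this number marks or whether each testis came from a separate animal.

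Spermatogenesis is the differentiation of spermatogonia, through the spermatocytes of meiosis, into spermatids and finally sperm, supported by the somatic Sertoli cells. ADAD2 is a testis-specific protein with an adenosine deaminase domain. In the juvenile testis the first wave of germ cells matures in near step, so that successively later cell types, each with its own transcriptome, appear from day to day. Whole-testis RNA sums over all of these cells. Fewer cells of a type and less RNA per cell cannot be told apart in such samples. Genes in the table carry identifiers of an extended testis transcriptome (XLOC followed by a number) that are not paired with symbols, so members were described by their levels, isoforms and shared reads, and neither *Adad2* nor markers of testicular cell types could be checked.

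Among members the ratio of highest to lowest wildtype CPM ranged from 1.77 to 4.52, with a median of 1.95. The median over the other 11726 genes that passed the filters was 1.19, and 716 of these reached at least 1.5. The last gene inside the list had a ratio of 1.775 and the first outside it a ratio of 1.773, so the edge of the list is not a break in the data. Of the members, 80 had a ratio of at least 2 and 7 a ratio of at least 3. The lowest bound of a 95% interval (exact binomial on the counts of the highest and lowest testis, counting error only) was 1.39 over all members. Both the genes and the testes compared were picked on these values, so the intervals describe the depth behind a ratio and are no test of it.

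Members were less abundant than the genes they were drawn from. Their mean wildtype level had a median of 16.2 CPM, with quartiles at 11.8 and 26.9 CPM, against a median of 36.6 CPM for the other genes. The lowest wildtype count of a member had a median of 183 and reached 2369 at most. Summed over members, the share of a testis's counts lay between 0.463% and 0.594%, with the highest share in wildtype replicate 2.

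The 4 identifiers that follow are the largest wildtype ratios among members whose mean was higher in mutant (XLOC_059963 and XLOC_031901) and among those whose mean was lower (XLOC_064440 and XLOC_007487). XLOC_059963 measured 46.1, 10.9 and 17.4 CPM in wildtype replicates 1 to 3 and 43.8, 32.8 and 26.3 CPM in mutant replicates 1 to 3. Replicate 1 was the highest testis of both genotypes, and the mutant values lay within the wildtype range. The wildtype ratio was 4.23 (95% counting interval 3.59 to 5.01) and the mutant ratio 1.67 (1.5 to 1.87).

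XLOC_031901 measured 67.8, 21.0 and 81.1 CPM in wildtype and 125, 79.0 and 80.9 CPM in mutant replicates 1 to 3. Here wildtype replicate 2 stood low by itself, and 2 of the mutant testes lay close to the other 2 wildtype testes. The mean was 56.7 ± 31.6 CPM in wildtype and 95 ± 26.2 CPM in mutant (SD, n = 3 testes each), and the genotypes overlapped.

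XLOC_064440 had the largest wildtype ratio of all members, 4.52 (95% counting interval 3.66 to 5.58). Its levels were 30.5, 6.75 and 11.0 CPM in wildtype and 18.1, 5.78 and 14.8 CPM in mutant replicates 1 to 3. It varied among mutant testes as well, by 3.13 times (2.55 to 3.85), the largest mutant ratio among the members. XLOC_007487 showed the opposite wildtype order, with 16.6, 59.5 and 32.2 CPM in wildtype and 18, 19.8 and 31.9 CPM in mutant replicates 1 to 3. All mutant testes were below wildtype replicate 2 and above wildtype replicate 1. The order of all 6 testes seen in XLOC_007487 was shared by 27 other members, that of XLOC_059963 by 5 and those of XLOC_031901 and XLOC_064440 by 1 each.

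**Figure D1:**
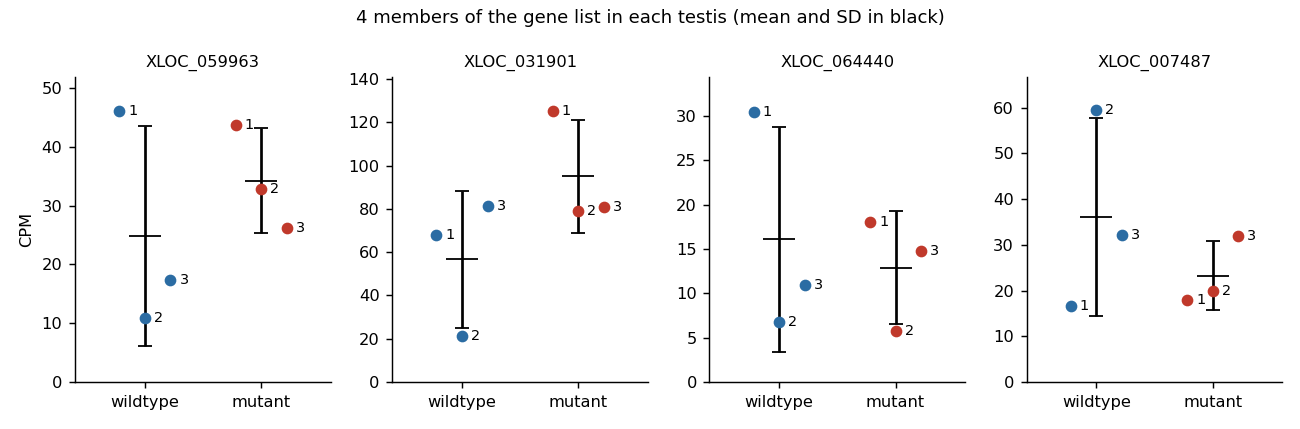
CPM of 4 members in each testis (points, numbered by replicate), with the mean and SD of each genotype (n = 3) in black. Wildtype replicates 1 and 2 hold opposite ends of the wildtype range in XLOC_059963, XLOC_064440 and XLOC_007487.

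The variation lay mainly between wildtype replicates 1 and 2. Of the 200 members, 114 (57.0%) were highest in wildtype replicate 2, 65 in wildtype replicate 1 and 21 in wildtype replicate 3. Wildtype replicate 1 was the lowest testis for 121 members, wildtype replicate 2 for 63 and wildtype replicate 3 for 16. Wildtype replicate 3 was thus the middle testis for 163 members, or 81.5%, against 58.4% of the other genes that passed the filters. Of these other genes, 45.5% were highest in wildtype replicate 2, 34.1% in wildtype replicate 1 and 20.3% in wildtype replicate 3. The lowest testis was wildtype replicate 1 for 46.4% of them, wildtype replicate 2 for 32.4% and wildtype replicate 3 for 21.2%. On a log2 scale on which the lowest testis is 0 and the highest is 1, the middle testis had a median position of 0.51, with quartiles at 0.32 and 0.65.

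In the largest group, 110 members were highest in wildtype replicate 2 and lowest in wildtype replicate 1. Relative to the wildtype mean, their median level was 0.69 in wildtype replicate 1, 1.34 in wildtype replicate 2 and 0.97 in wildtype replicate 3. All mutant testes lay low for these genes, with medians of 0.72, 0.74 and 0.83 in mutant replicates 1 to 3. In all 110 the mutant mean was below the wildtype mean, and all mutant testes were below wildtype replicate 2. For 97 of them all mutant testes were also below wildtype replicate 3, and for 109 the mutant mean was nearer to wildtype replicate 1 than to wildtype replicate 2 on the log2 scale. Among the other genes with the same wildtype order, 83.9% of 4058 had a lower mean in mutant. The mean difference between genotypes entered the choice of members, although only its size was bounded, and wildtype replicate 2 is part of the wildtype mean, so nothing further is read from these counts.

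The 65 members highest in wildtype replicate 1 did not lie on one side of the wildtype mean in mutant. Their mean level in mutant was below 0.8 times that of wildtype for 15 members, between 0.8 and 1.25 times for 29 and above 1.25 times for 21. For the 21 members of the last kind, median levels relative to the wildtype mean were 1.59, 1.49 and 1.25 in mutant replicates 1 to 3. For the 15 of the first kind they were 0.71, 0.57 and 0.66. The 114 members highest in wildtype replicate 2 had a mean below 0.8 times wildtype in 83 cases and above 1.25 times in 0 cases. Among the other genes highest in wildtype replicate 2, 11.3% were below and 0.693% above these bounds. Among those highest in wildtype replicate 1, 15.1% were below, 76.8% between and 8.13% above. The highest wildtype testis is part of the wildtype mean, so nothing further is read from these counts. Summed over members, those highest in wildtype replicate 1 came to 2327, 1201 and 1450 CPM in wildtype and 1926, 1634 and 1629 CPM in mutant replicates 1 to 3. Those highest in wildtype replicate 2 came to 2165, 4255 and 3033 CPM in wildtype and 2193, 2296 and 2584 CPM in mutant replicates 1 to 3.

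The 21 members highest in wildtype replicate 3 summed to 573, 489 and 873 CPM in wildtype and 715, 701 and 674 CPM in mutant replicates 1 to 3. The mutant testes differed little in this sum and lay between wildtype replicates 1 and 3. Single members differed more, with a median ratio of highest to lowest mutant CPM of 1.38 for the 11 lowest in wildtype replicate 1. That median was 1.36 for the 10 lowest in wildtype replicate 2. The mean in mutant was below 0.8 times that of wildtype for 3 members, between 0.8 and 1.25 times for 12 and above 1.25 times for 6.

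**Figure D2:**
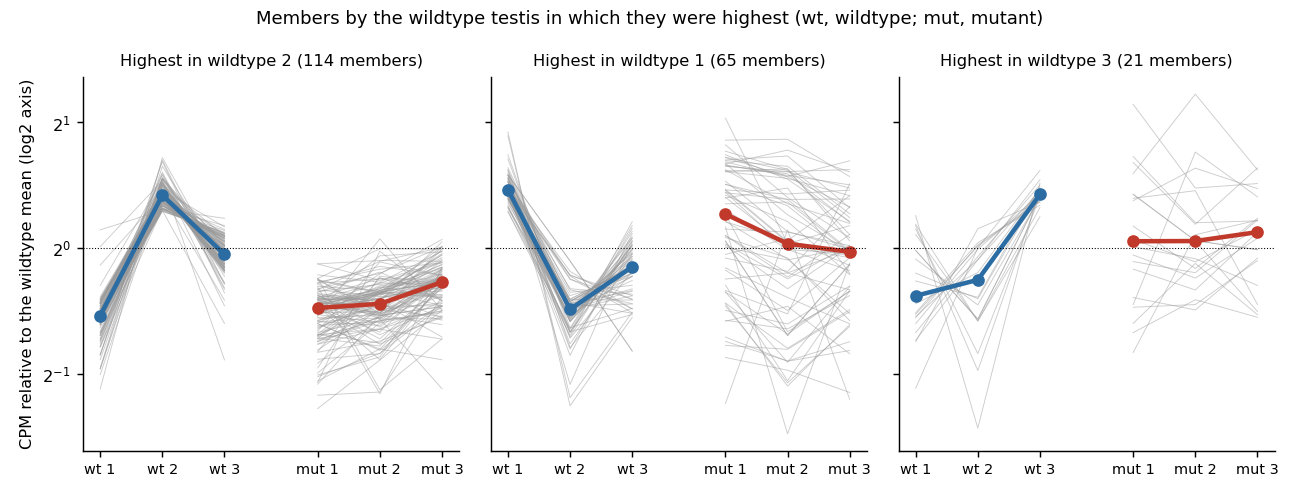
CPM of each member relative to its wildtype mean (log2 axis) in wildtype (left) and mutant (right) replicates, in grey, with medians as blue and red points, for members highest in wildtype replicates 2 (114), 1 (65) and 3 (21). Mutant medians lie at or below the wildtype mean in all mutant testes for the first group, and grey mutant lines spread to both sides of it for the second.

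The bound on the mean difference kept some variable genes out of the list. Of 12278 genes with enough wildtype counts, 252 were outside the bound, and 42 of these had a wildtype ratio at least as large as that of the last member. All 42 were lower in mutant, as were 245 of the 252. They were highest in wildtype replicate 1 in 40 cases and lowest in wildtype replicate 2 in 39, the reverse of the commonest order among members. Their median levels relative to the wildtype mean were 1.37, 0.69 and 0.94 in wildtype and 0.31, 0.26 and 0.37 in mutant replicates 1 to 3. The list therefore covers the most variable genes only among those with a moderate difference between genotypes.

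Spread among mutant testes was not used to choose the members, and it was wider for them than for the genes they were drawn from. The ratio of highest to lowest mutant CPM had a median of 1.28 over members, with quartiles at 1.18 and 1.44, against a median of 1.10 over the other genes that passed the filters, with quartiles at 1.06 and 1.16. It was nevertheless smaller than their wildtype ratio, for which they had been chosen. When genes were divided by mean CPM over all 6 testes into 5 groups of equal size, the median mutant ratio of members was 1.28, 1.28, 1.22, 1.38 and 1.17 from the lowest to the highest group. The other genes had medians of 1.17, 1.13, 1.10, 1.08 and 1.07. The lowest groups held most members, 81 and 70, and the highest held 8. Within their own abundance group, 166 of 200 members (83.0%) exceeded the median of the other genes.

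The 95% counting interval of the mutant ratio lay above 1 for 145 of 200 members (72.5%), against 47.5% of all genes that passed the filters. Because the highest and lowest testis were picked for each gene, such an interval lies above 1 more often than its level implies, in both sets. Any 2 mutant testes showed a wider spread for members. The median ratio was 1.18 between mutant replicates 2 and 3, 1.2 between mutant replicates 1 and 3 and 1.11 between mutant replicates 1 and 2, whereas the other genes had medians of 1.06, 1.06 and 1.05.

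**Figure D3:**
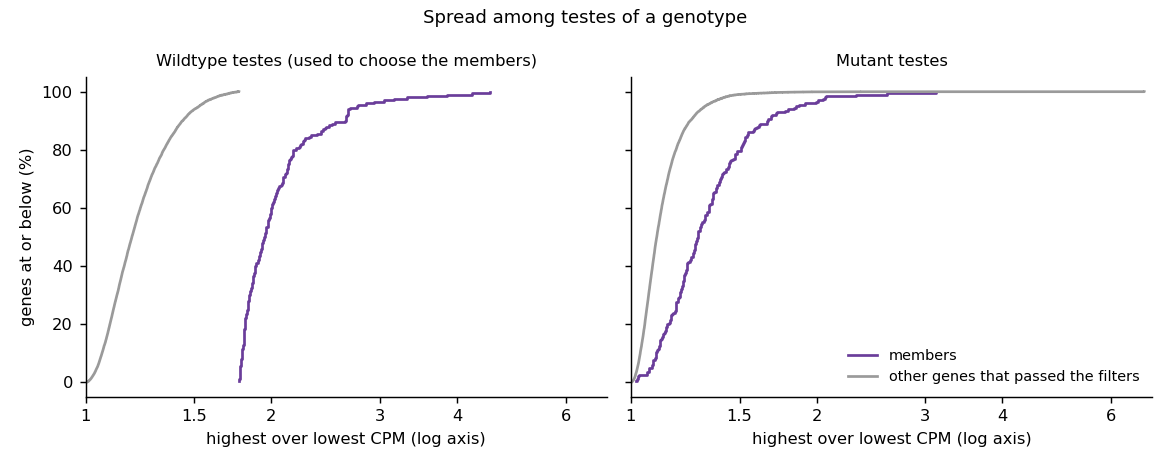
Percentage of genes at or below a given ratio of highest to lowest CPM (log axis) among wildtype (left) and mutant (right) testes, for 200 members and 11726 other genes that passed the filters. The members were chosen on the wildtype ratio, which parts the curves by construction, and their mutant median was 1.28 against 1.10.

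Ranked by the mutant ratio under the same filters with the genotypes exchanged, the 200 most variable genes among mutant testes included 45 members, or 22.5% of each list. Of the other 11726 genes, 1.01% were in the mutant list. The mutant list ended at a ratio of 1.46, below the smallest wildtype ratio of a member, and 37 of its genes had fewer than 100 counts in a wildtype testis and could not have been members. The share in common depended on single testes. It was 12% when wildtype replicate 1 was left out and the members were chosen again on the other 2, and 12% or 13% when the mutant list was chosen without mutant replicate 1 or without mutant replicate 3.

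For most members that were highest in wildtype replicate 1 or 2, a particular mutant testis was highest as well. Of the 114 members highest in wildtype replicate 2, 84 (73.7%) were highest in mutant replicate 3, 20 in mutant replicate 2 and 10 in mutant replicate 1. Of the 65 members highest in wildtype replicate 1, 44 (67.7%) were highest in mutant replicate 1. Of the 121 members lowest in wildtype replicate 1, 82 (67.8%) were lowest in mutant replicate 1 and 6 in mutant replicate 3. The same pairing was weaker in the other genes that passed the filters, whose wildtype differences were smaller by the choice of members. Among these, 53.5% of those highest in wildtype replicate 2 were highest in mutant replicate 3, and 45.0% of those highest in wildtype replicate 1 were highest in mutant replicate 1. The 63 members lowest in wildtype replicate 2 were divided between mutant replicates 2 and 3, which were lowest for 29 and 30 of them. No such pairing was seen in the 21 members highest in wildtype replicate 3, of which 6, 7 and 8 were highest in mutant replicates 1, 2 and 3.

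Across the 200 members, the log2 difference of wildtype replicate 2 minus wildtype replicate 1 had the same sign as that of mutant replicate 3 minus mutant replicate 1 in 169 (84.5%), and their correlation was r = 0.68 (Spearman's rho 0.67). No library enters both differences, but genes of one testis share its library and its cells and are not independent, so these values are a description. The pair of mutant testes was chosen after its values were seen. For mutant replicate 2 minus mutant replicate 1, the correlation was 0.47, and for mutant replicate 3 minus mutant replicate 2 it was 0.27. Over the other 11726 genes, the 3 correlations were 0.40, 0.22 and 0.19. The choice of members gave them wide wildtype differences and left narrower ones in the other genes. Wider differences by themselves raise a correlation and the agreement of signs, so no closer link is read for members.

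For the 125 members higher in wildtype replicate 2 than in wildtype replicate 1, the median log2 difference was 0.91 in wildtype and 0.24 for mutant replicate 3 minus mutant replicate 1. For the 75 members with the opposite sign, it was -0.96 in wildtype and -0.18 in mutant. The wildtype differences were large by the choice of members, and the mutant differences were not selected. In the other 11726 genes, the wildtype differences were bounded by the same choice, with a ratio of at most 1.773. There the same medians were 0.23 and 0.06 for genes higher in wildtype replicate 2. They were -0.19 and -0.03 for genes higher in wildtype replicate 1. Wildtype replicate 1 and mutant replicate 1, which lay towards the same end, carry the same first identifier number, and the part of this number in the pattern was not tested. Total counts were 22179778 in mutant replicate 1 and 18433438 in mutant replicate 3, the largest and smallest mutant libraries, and the part of depth in the pattern was not tested.

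**Figure D4:**
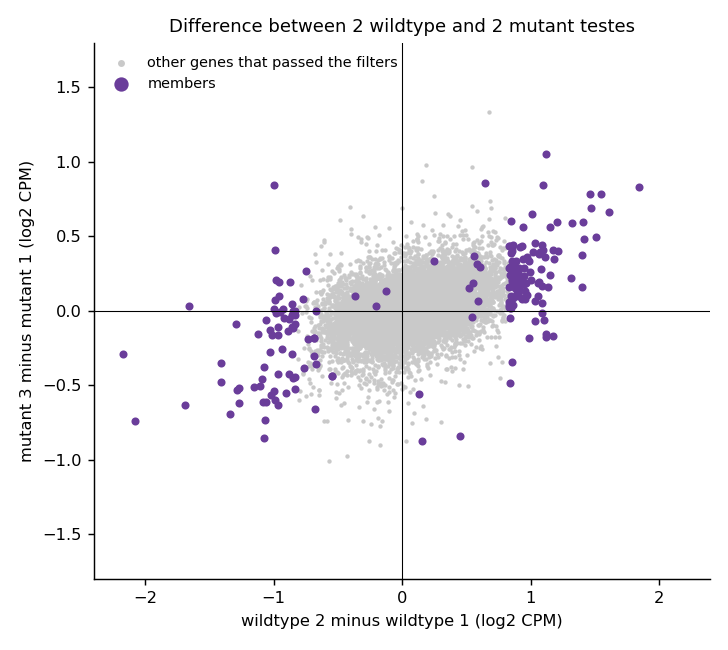
Log2 CPM of wildtype replicate 2 minus wildtype replicate 1 (horizontal) and of mutant replicate 3 minus mutant replicate 1 (vertical), with 200 members in purple and 11726 other genes that passed the filters in grey. Members lie on the same side of 0 on both axes in 169 of 200 cases. They were chosen for a wide wildtype spread, which places most of them far from 0 on the horizontal axis.

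Mutant testes mostly fell within the wildtype range of the members, which is wide by their choice. Mutant replicate 3 lay inside it for 163 members, mutant replicate 2 for 133 and mutant replicate 1 for 123. All mutant testes lay inside it for 89 members (44.5%), against 21.6% of the other genes. Values outside the range were more often below than above, with 49 below and 28 above in mutant replicate 1, 48 and 19 in mutant replicate 2, and 24 and 13 in mutant replicate 3. The other genes leaned the same way, with 37.2% below and 23.3% above in mutant replicate 1, 36.4% and 23.1% in mutant replicate 2, and 29.7% and 20.9% in mutant replicate 3.

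Between genotypes, all genes were compared by edgeR (quasi-likelihood test, Benjamini-Hochberg adjusted p). All 200 members were tested, and 8 were called at an adjusted p below 0.05, 4 lower and 4 higher in mutant, against 11.8% of all 21414 genes called (8.27% lower and 3.5% higher). An unadjusted p below 0.05 was found for 55 members (27.5%), close to the 27.1% of the other genes that passed the filters. Wildtype and mutant values were fully separated in 16 members, 8 in each direction, against 31.6% of all genes tested. Since members were chosen for a wide wildtype spread and a bounded mean difference, nothing is read from these counts. Wildtype replicate 1 was lowest for 121 members and highest for 65, so leaving it out narrows the wildtype spread for which they were chosen. The number called changed with each testis left out, and nothing is read from these changes. It was 113 members (81 lower, 32 higher) when wildtype replicate 1 was left out, where 20.9% of all genes were called, and 13 (12 lower, 1 higher) without wildtype replicate 2, where 10.6% were. It was 2 without wildtype replicate 3 and 1 without mutant replicate 3, where 6.37% and 7.55% of all genes were called. It was 0 without mutant replicate 1 or mutant replicate 2, where 5.76% and 5.36% of all genes were called, edgeR gave 25 and 26 members an unadjusted p below 0.05, and DESeq2, on all testes, called 18.

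Part of the list rests on reads that were divided between genes. RSEM, the program that made the counts, shares a read that matches several genes among them, and a count that is not whole is a sign of such sharing. A count more than 0.05 from a whole number in at least 1 wildtype testis was found in 118 members (59.0%), against 69.4% of the other genes, so genes with such counts were no more frequent among members. This counts genes, not the share of their reads that was divided, and abundance was not matched. The 82 members with whole counts had a median wildtype ratio of 1.93 and a median mutant ratio of 1.27, close to the 1.96 and 1.29 of the 118 with shared reads. Wildtype replicate 2 was the highest testis for 54 of the 82 and for 60 of the 118. Of the 54, 42 were highest in mutant replicate 3. XLOC_059963 and XLOC_031901 were whole in all wildtype testes, and XLOC_064440 and XLOC_007487 were not.

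A few members had closely tied counts. The table holds 4 members whose counts are identical to those of another member in all 6 testes, in 2 pairs. The list thus holds 198 distinct sets of counts. These 4 are 2% of members, and 0.256% of the other genes had counts identical to those of another gene. Each gene of the more abundant pair had 136, 84.8 and 51.6 CPM in wildtype replicates 1 to 3, a ratio of 2.64. A member with the next identifier number to one of the pair had 43.8, 95.1 and 146 CPM in the same testes, a ratio of 3.32 in the opposite direction. Summed, the 3 genes had 317, 265 and 249 CPM in wildtype, a ratio of 1.27, and 243, 215 and 277 CPM in mutant replicates 1 to 3. These genes were singled out after their values were seen.

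Some members lay close together in the numbering of the identifiers. When members whose numbers were at most 10 apart were joined, 41 members fell into 16 runs of 2 to 5 members, and in 10 of the runs all members were highest in the same wildtype testis. No share for the other genes is set beside these counts, and nothing is read from them. The longest run with a single order held 5 members within 11 numbers. All 5 were highest in wildtype replicate 1 and lowest in wildtype replicate 2, with wildtype ratios from 1.81 to 2.09 and a mean in mutant between 1.37 and 1.61 times that of wildtype. All 5 had counts that were not whole. XLOC_007487 and a member 2 numbers from it had the same wildtype order, with ratios of 3.58 and 2.93. Whether these numbers follow positions in the genome was not checked.

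Members had fewer isoforms than the genes they were drawn from. A single isoform with a count was listed for 73 members (36.5%), against 16.3% of the other genes, and the median number of isoforms with a count was 2 against 4. Members were also less abundant, and abundance was not matched in this comparison. In the 127 members with several isoforms, the leading isoform, the one with the highest summed CPM, held a median of 71.2% of the counts of its gene. It ordered the wildtype testes as its gene did in 109 of the 127 (85.8%), against 58.9% of 9812 other genes with several isoforms, whose wildtype differences were smaller. Its wildtype ratio had a median of 2.08, close to the 1.96 of the genes themselves.

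Variation was often seen on the other isoforms as well. In 86 of the 127 members the other isoforms together had at least 20 counts in each wildtype testis. Their summed level had a median wildtype ratio of 1.95 and was highest in the same testis as the gene in 66 of the 86. It kept the wildtype order of the gene in 51 of the 86. At counts near 20, counting error alone widens such a ratio, and no value for the other genes is set beside it. The same isoform led in all 6 testes in 89 of the 127 members (70.1%), against 79.4% of the other genes, and in all wildtype testes in 103 (81.1%), against 85.4%.

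**Figure D5:**
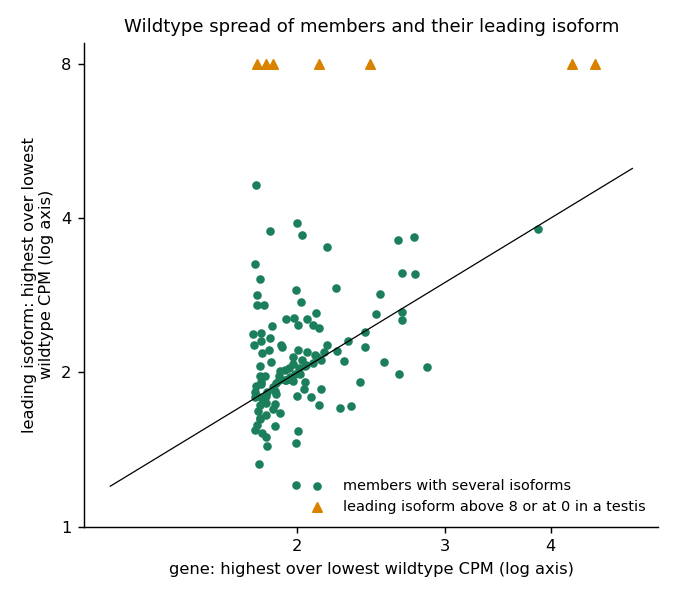
Ratio of highest to lowest wildtype CPM of the gene (horizontal) and of its leading isoform (vertical), on log axes, for the 127 members with several isoforms, with the line of equal ratios. Triangles at 8 mark 7 leading isoforms with a larger ratio or at 0 in a wildtype testis, and the medians over all 127 were 1.96 for genes and 2.08 for leading isoforms.

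The named members differed in this respect. In XLOC_059963 the leading isoform of 5 had 638, 76.1 and 271 expected counts in wildtype replicates 1 to 3, or 85.9%, 42.3% and 72.5% of the gene. The second isoform had 59.2, 55.3 and 61.5 counts in the same testes, so that the wildtype difference of this gene lay on its leading isoform. XLOC_031901 had at least 96.3% of its counts on its leading isoform in every testis. In XLOC_064440 the leading isoform of 6 had 377, 0.28 and 152 expected counts in wildtype and 268, 29.9 and 180 in mutant replicates 1 to 3. It led the gene in 4 testes but held 0.251% of its counts in wildtype replicate 2 and 23.5% in mutant replicate 2, the lowest testes of their genotypes. XLOC_007487 was listed with 1 isoform.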

How the data were processed

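RNA from 3 wildtype and 3 *Adad2* mutant whole testes was sequenced in paired-end reads (100 bp). Per the labels and the study's methods, the authors computed expected counts of genes and isoforms in each sample by RSEM (version not given in the sources used here) against GRCm38 and a transcriptome extended from testis, and no normalization was applied to the deposited values. The deposited EBSeq tables, which hold fold changes and posterior probabilities of the authors' own comparison, were not used. Spike-in rows, 92 with 0 counts in every testis, were removed.

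Groups follow the labelled genotype, and replicates were numbered in accession order. CPM was the expected count over the column total. Genotypes were compared over all genes with edgeR 4.0.16 (R 4.3.3) on rounded counts (filterByExpr, TMM scaling and the quasi-likelihood test). With 3 testes in each genotype, p-values measure only the spread between these samples, which may be technical. Isoforms were placed in genes by table order and equal sums of counts, which placed all 105316 isoforms with a count in 33218 genes, with more than one possible end in 44 genes. Counting intervals were exact binomial (scipy 1.17.1) and cover counting error only.

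The members and lists were chosen with earlier results of these data known. Identifiers were named by rule, the largest wildtype ratios among members with a higher and with a lower mean in mutant. Because identifiers are not paired with symbols, planned marker lists were not used, and no sequence is shown.

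Alternatives were DESeq2 1.42.0, limma-voom (limma 3.58.1), other scalings, filters and list sizes, unrounded counts and each testis left out.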

Additional observations from a re-analysis of the deposited data

How the results depend on the processing

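The number of members called between genotypes, 8, was 18 with DESeq2 and 19 with no filter on low counts, where 8.27% and 8.76% of all genes were called against 11.8%, and it ranged from 0 to 113 with each testis left out. It was within 1.5 times with limma-voom, library size alone, median-of-ratios scaling and unrounded counts. The median mutant ratio of members, 1.28, was 1.22 with at least 200 counts, 1.44 with at least 20 counts, 1.37 for a list of 100 genes, 1.23 for a list of 400 genes and 1.2 when only genes with whole counts could be members, a setting added after the data were seen. With each mutant testis left out it ranged from 1.11 to 1.2, where a ratio over 2 testes is smaller by construction. The share of members among the 200 most variable mutant genes, 22.5%, was 13% with at least 20 counts and ranged from 12% to 26% with each testis left out. The cause was not tested.

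The share of members highest in wildtype replicate 2, 57.0%, was between 45.5% and 77.5% in 8 alternatives, the lowest with no bound on the difference between genotypes. The share with the same sign of both differences, 84.5%, was between 73.5% and 91.5% in 8 alternatives added after the data were seen. Scaling by TMM kept 191 of the 200 members, at least 200 counts kept 87, at least 20 counts 39 and only whole counts 82. The 87 and 82 are the members that met a stricter filter, which removes the rest by construction, so they are not set against the 191. The looser minimum of 20 counts let in other genes, which took the place of most members. With the first identifier number as a block, a fit added after the data were seen, 5 members (4 lower, 1 higher) and 4.34% of all genes were called. Only 1 such number occurs in both genotypes, so this fit takes the genotype difference from wildtype replicate 1 and mutant replicate 1, and the labels do not say that the number pairs testes.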
